A study of Mus musculus with 102 samples.

Results

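The genes described here were the cadherins and protocadherins of the mouse, taken as every gene whose symbol was Cdh followed by a number, or began with Pcdh, and which had at least 1 probe set of its own on the array. Cdh5, the cadherin of blood vessel walls, was left out because it served as a marker of endothelial cells. The rule used no measured value and gave 55 genes with 99 probe sets, out of 18193 genes and 45037 probe sets in all. Where a gene had several probe sets, the one with the highest mean over the brain and spinal cord regions was used, which concerned 26 genes, while the other 29 had a single probe set. Messenger RNA of 51 tissues was hybridised to Affymetrix Mouse Genome 430 2.0 arrays, with 2 arrays a tissue. The tissues were 48 regions of the brain and spinal cord, which carry the results, and the retina, pituitary and pineal gland, which were compared with them separately. All came from male Balb/c mice aged 7 to 8 weeks, kept under cycles of 12 h light and 12 h dark or in constant darkness, with no transgene or mutation in any group. Each tissue was punched out with a needle of 0.5 mm every 4 h at 6 time points over 1 day, and the material of many mice and all time points was pooled before it reached an array, so the spread between the 2 arrays of a region is that between 2 such pools, not between single animals. In such bulk samples, fewer cells of a type and less RNA per cell cannot be told apart.

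The labels of the regions were checked with 10 marker genes, and 7 of them had their highest mean in a region that they mark, among them Prox1 in the dentate gyrus, Gpr151 in the habenula and Pcp2 in the cerebellar cortex. Of the other 3, Drd1 and Wfs1 were highest in the olfactory tubercle rather than in the caudate putamen or CA1, and Nr5a1 was highest in the dorsal subparaventricular zone rather than in the ventromedial nucleus. The deposited log2 signals, normalised by RMA, lay between 3.88 and 14.87 (medians of single arrays 7.32 to 7.46). A difference of 1 on this scale is a doubling of signal. Signals of different probe sets were not set against each other, since each probe set has its own response, and no detection call was available for low signals.

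Cadherins are transmembrane proteins that bind cadherins of the same kind on a neighbouring cell in the presence of calcium, and in the nervous system they sort cells into nuclei and layers and help axons and dendrites to find their partners. The classical cadherins, type I (such as Cdh1, E-cadherin, and Cdh2, N-cadherin) and type II (such as Cdh8 and Cdh11), are tied to the actin skeleton through catenins. The protocadherins are the largest branch of the family, with the delta protocadherins, which stand alone in the genome, and the clustered alpha, beta and gamma protocadherins, which lie in a row and give each neuron its own combination of surface proteins. The 55 genes held 5 of type I, 10 of type II, 5 other cadherins, 9 delta protocadherins, 3 other protocadherins that stand alone, and 23 clustered protocadherins, of which 22 belonged to the beta cluster and the last was Pcdhgc4.

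Large regional differences were found in 23 of the 55 members and were more frequent in some branches than in others. A test of any difference among the 48 regions (limma's F test, Benjamini-Hochberg adjusted p under 0.05) was passed by 53 of the 55 genes (96.4%). This share was close to the 91.1% of all probe sets and the 93.1% with 1 probe set a gene. The exceptions were Pcdhb4 (adjusted p = 0.34) and Pcdh12 (adjusted p = 0.13). For each region, the mean of its 2 arrays was next compared with the mean of the other 47 regions, and a difference was called where it had an adjusted p under 0.05 (limma) and a size of at least 1 on the log2 scale. At least 1 region was called in 23 of the 55 members, or 41.8%, compared with 21.6% of all probe sets and 24.0% when every gene was represented by 1 probe set chosen by the same rule. Of the 2640 pairs of a member and a region, 105 were called higher (3.98%) and 96 were called lower (3.64%). Over all probe sets the shares were 1.40% and 0.880%, and with 1 probe set a gene they were 1.64% and 1.09%.

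The branches differed in how often their members were called. Delta protocadherins had a called region in 7 of 9 genes (40 regions higher and 42 lower in all), type II cadherins in 7 of 10 (30 higher and 28 lower), type I cadherins in 3 of 5 (13 higher and 3 lower), the other protocadherins that stand alone in 2 of 3 (10 higher and 16 lower), the other cadherins in 1 of 5 (8 higher and 5 lower) and the clustered protocadherins in 3 of 23 (4 higher and 2 lower). The standard deviation of the 48 regional means had a median of 0.81 in delta protocadherins, 0.57 in type II, 0.47 in type I and 0.17 in clustered protocadherins, compared with 0.21 over all genes. Pcdh8 varied more between regions than 99.3% of all genes, Pcdh20 more than 98.9%, Pcdh19 and Cdh9 more than 98.5%, and Pcdh11x more than 98.3%.

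**Figure D1:**
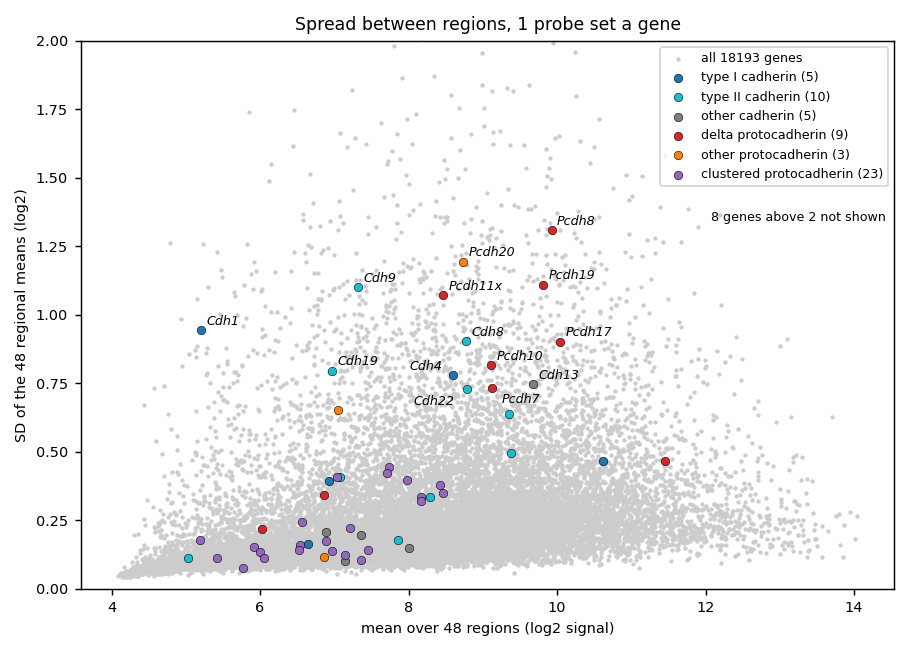
Each point is a gene, with its mean log2 signal over 48 regions on the x axis and the standard deviation of its 48 regional means on the y axis. Grey points are the 18193 genes with a probe set of their own and coloured points are the 55 members by branch. The y axis is cut, and the few genes above its end, up to 2.42, are not shown. Pcdh8 lies above 99.3% of all genes, Pcdh20 above 98.9%, and Pcdh19 and Cdh9 above 98.5%, whereas 13 of the 23 clustered protocadherins lie below the median of all genes.

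The region with the lowest mean was the lateral lobe of the cerebellar cortex (Cb lobe) in 10 of the 23 members with a called region. The region with the highest mean lay in the telencephalon in 12 of the 23, in the hypothalamus in 7, in the cerebellum in 2, and in the thalamus and spinal cord in 1 each. Some member was called in 46 of the 48 regions, the exceptions being the arcuate nucleus and the periaqueductal gray. The Cb lobe had 3 members called higher and 10 called lower (all probe sets 3.26% and 2.13%), the cerebellar vermis (Cb vermis) 2 and 10 (2.74% and 1.67%) and the dentate gyrus (DG) 4 and 5 (1.99% and 1.49%). In the same order, the shares with 1 probe set a gene were 2.94% and 2.93%, 2.54% and 2.20%, and 1.97% and 2.08%. In the DG the members called higher were Pcdh20, Cdh9, Pcdh8 and Cdh8, and those called lower were Pcdh11x, Pcdh10, Cdh22, Pcdh15 and Cdh13, so every branch but type I and the clustered genes took part.

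**Figure D2:**
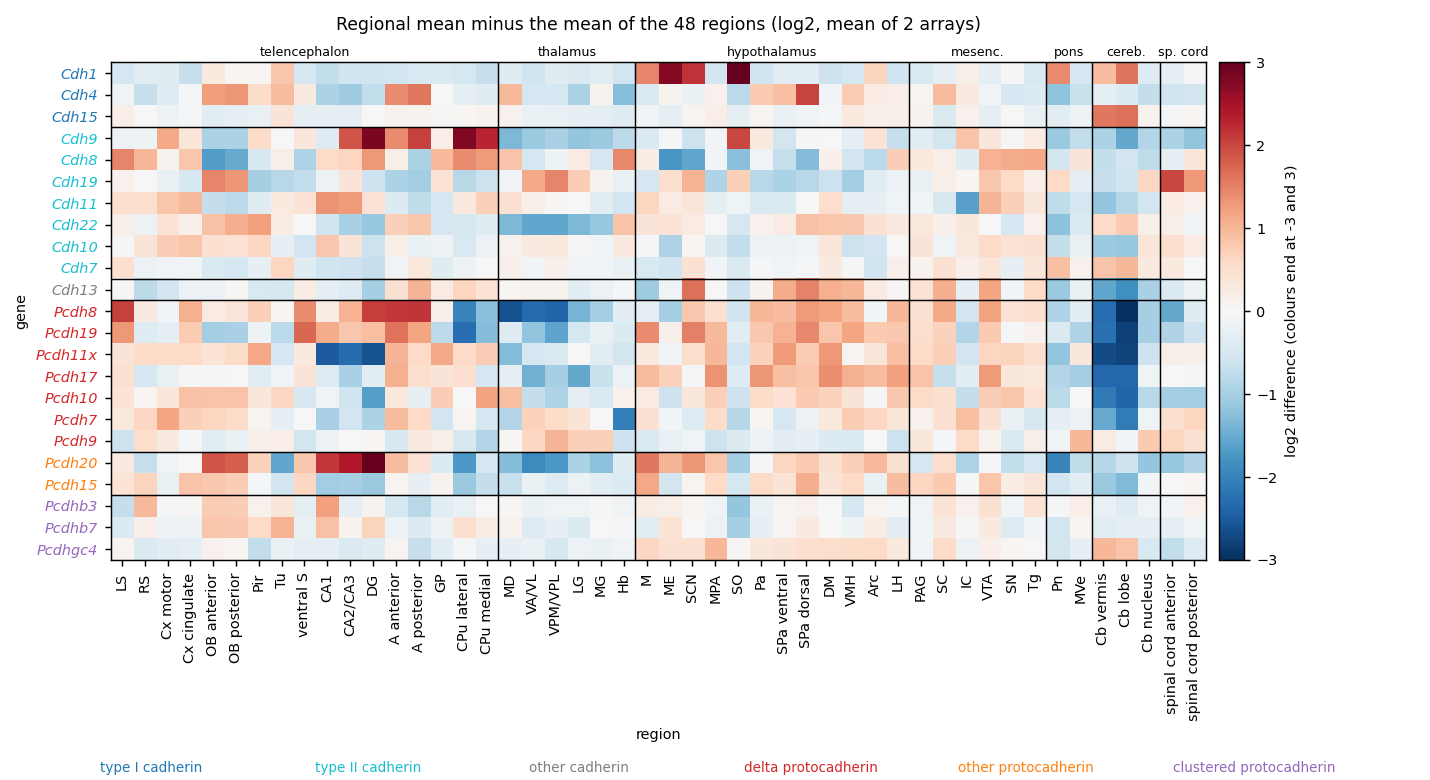
Rows are the 23 members with at least 1 called region, grouped by branch, and columns are the 48 regions by division; the colour is the regional mean of 2 arrays minus the mean over 48 regions on the log2 scale, from -3 (blue) to 3 (red). The Cb lobe and Cb vermis columns are blue in most delta protocadherin rows and red in the Cdh15 row.

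Among the delta protocadherins, Pcdh8 (paraxial protocadherin, an activity-regulated synaptic protein that controls how much N-cadherin stays at the surface) had the widest range. Its highest signals were in the amygdala, DG and lateral septum (LS). The posterior amygdala had 12.05 and 12.10 on its 2 arrays, the anterior amygdala 11.91 and 12.18, DG 12.02 and 11.97, and LS 12.10 and 11.87, and these 4 regions lay within the spread of their arrays. At the other end, the Cb lobe had 6.99 and 6.87, a difference from the other 47 regions of -3.06 ± 0.14 (SE), and the mediodorsal nucleus of the thalamus (MD) had 7.51 and 7.12. The distance between the posterior amygdala and the Cb lobe was 5.14, or 35.4-fold. Altogether 13 regions were called higher, from the cingulate cortex and ventral subiculum to the superior colliculus and ventral tegmental area (VTA), and 12 lower, which included 5 thalamic nuclei and both parts of the caudate putamen (CPu).

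Pcdh19, whose human counterpart is mutated in an epilepsy of females, followed a related map. Its highest means were in the ventral subiculum (11.48 and 11.57), the anterior amygdala (10.92 and 11.96) and the suprachiasmatic nucleus (SCN, 11.38 and 11.25), and the 2 arrays of the anterior amygdala lay further apart than the means of these regions. The lowest were the Cb lobe, at 7.05 and 6.96 (-2.86 ± 0.17), the lateral CPu, at 7.55 and 7.51, and the Cb vermis, at 7.61 and 7.52. In all, 10 regions were called higher and 9 lower, including both parts of the olfactory bulb. Pcdh17, a protein of axons that grow together and of basal ganglia synapses, was highest in the hypothalamus, with 11.53 and 11.33 in the dorsomedial nucleus (DM) and 11.25 and 11.51 in the medial preoptic area (MPA). It was lowest in the Cb lobe (7.80 and 7.57) and Cb vermis (7.86 and 7.51), and none of these 4 arrays reached the level of any array outside the cerebellar cortex.

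Pcdh8 and Pcdh19 had the most similar profiles of any 2 of the 23 members (Pearson's r = 0.818 over 48 regions), and Pcdh19 was the third nearest of all genes to Pcdh8 after Cmip (0.824) and Vstm2a (0.819). Pcdh17 ran with Pcdh19 at r = 0.66 and with Pcdh8 at 0.614. The 21 pairs among the 7 called delta protocadherins had a median r of 0.411 (-0.475 to 0.818), whereas the 21 pairs of type II cadherins had a median of 0.01 (-0.399 to 0.458) and all 253 pairs of the 23 members 0.060. These correlations describe profiles measured on the same arrays. The stretches of genome before the start sites of these 3 genes are shown because their profiles were alike. They are the 250 bases before the start in RefSeq (mouse build GRCm38.p6), 5′ to 3′ on the strand of the gene, and capitals mark a CCAAT box (letters CCAAT), a GC box (letters GGGCGG) or a TATA box (letters TATAAA) on either strand, so that ATTGG is a CCAAT box read on the other strand and CCGCCC is a GC box read there. No marked letters overlap. The stretch of Pcdh8 lies at chr14:79771313-79771562 on the minus strand, that of Pcdh19 at chrX:133688994-133689243 on the minus strand, and that of Pcdh17 at chr14:84443313-84443562 on the plus strand.
Pcdh8: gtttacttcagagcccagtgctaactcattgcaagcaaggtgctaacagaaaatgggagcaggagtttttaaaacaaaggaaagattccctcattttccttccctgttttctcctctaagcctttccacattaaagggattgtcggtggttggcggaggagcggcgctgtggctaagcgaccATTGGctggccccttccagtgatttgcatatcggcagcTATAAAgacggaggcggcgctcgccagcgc
Pcdh19: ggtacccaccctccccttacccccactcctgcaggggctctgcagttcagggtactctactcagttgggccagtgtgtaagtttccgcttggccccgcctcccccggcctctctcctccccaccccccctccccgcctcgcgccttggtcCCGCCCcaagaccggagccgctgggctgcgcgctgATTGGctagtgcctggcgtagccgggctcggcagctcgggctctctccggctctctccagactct
Pcdh17: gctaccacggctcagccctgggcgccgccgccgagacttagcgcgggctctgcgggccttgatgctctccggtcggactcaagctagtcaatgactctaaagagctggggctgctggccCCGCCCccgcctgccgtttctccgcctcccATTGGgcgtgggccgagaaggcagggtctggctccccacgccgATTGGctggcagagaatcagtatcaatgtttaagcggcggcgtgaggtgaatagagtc
All 3 stretches held a CCAAT box on the reverse strand, beginning 68 bases before the start in Pcdh8, 65 in Pcdh19, and 101 and 58 in Pcdh17. A GC box was present in Pcdh19 and Pcdh17 and a TATA box in Pcdh8, 30 bases before its start. Over all 32851 promoters of this length in RefSeq, a CCAAT box was found in 33.8%, a GC box in 32.7% and a TATA box in 12.4%. Promoters were found for 20 of the 55 members, 23 stretches in all, of which 15 held a CCAAT box, 8 a GC box and 2 a TATA box. A match is only a run of letters and was not tied to any measurement.

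Pcdh11x, an X-linked delta protocadherin, was lowest in the hippocampus and the cerebellar cortex. CA1 had 5.96 and 5.99, the field of CA2 and CA3 (CA2/CA3) 6.31 and 6.00, DG 5.79 and 5.91, and Cb lobe 5.78 and 5.57. The ventral subiculum, next to CA1, had 8.75 and 8.75. Its highest means were in DM (9.95 and 9.58, with 0.89 from the second probe set, which lost the call) and the ventral subparaventricular zone (9.82 and 9.65), and the globus pallidus (GP, 9.43 and 9.78) and piriform cortex (Pir, 9.60 and 9.63) were also called higher. No other delta protocadherin was called lower in all 3 hippocampal fields, but Pcdh15 of the branch described next was.

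Pcdh10 (OL-protocadherin, which guides striatal axons) was called higher only in the medial CPu, at 10.43 and 10.21 (1.24 ± 0.12), and lower in DG (7.54 and 7.35), both cerebellar cortex regions and both spinal cord regions. Pcdh7 was called higher only in the motor cortex (10.18 and 10.45) and lower in the habenula (Hb, 7.18 and 6.98), Cb lobe (6.97 and 7.07) and Cb vermis (7.85 and 7.37). The second probe set of Pcdh7 (r = 0.883) was called in no region, with 0.74 in the motor cortex and -0.80 in the Cb lobe. Pcdh9 was called higher in the ventral posterior thalamic nuclei (VPM/VPL, 12.36 and 12.57) and the medial vestibular nucleus (12.42 and 12.49), was called lower nowhere, and was lowest in the medial CPu (10.49 and 10.67), while a dimmer probe set of the gene had 5 regions higher and 3 lower. Its range of 1.89 was the smallest of the 7 called genes. Pcdh18 (range 1.47) and Pcdh1 (range 0.93) were not called in any region.

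**Figure D3:**
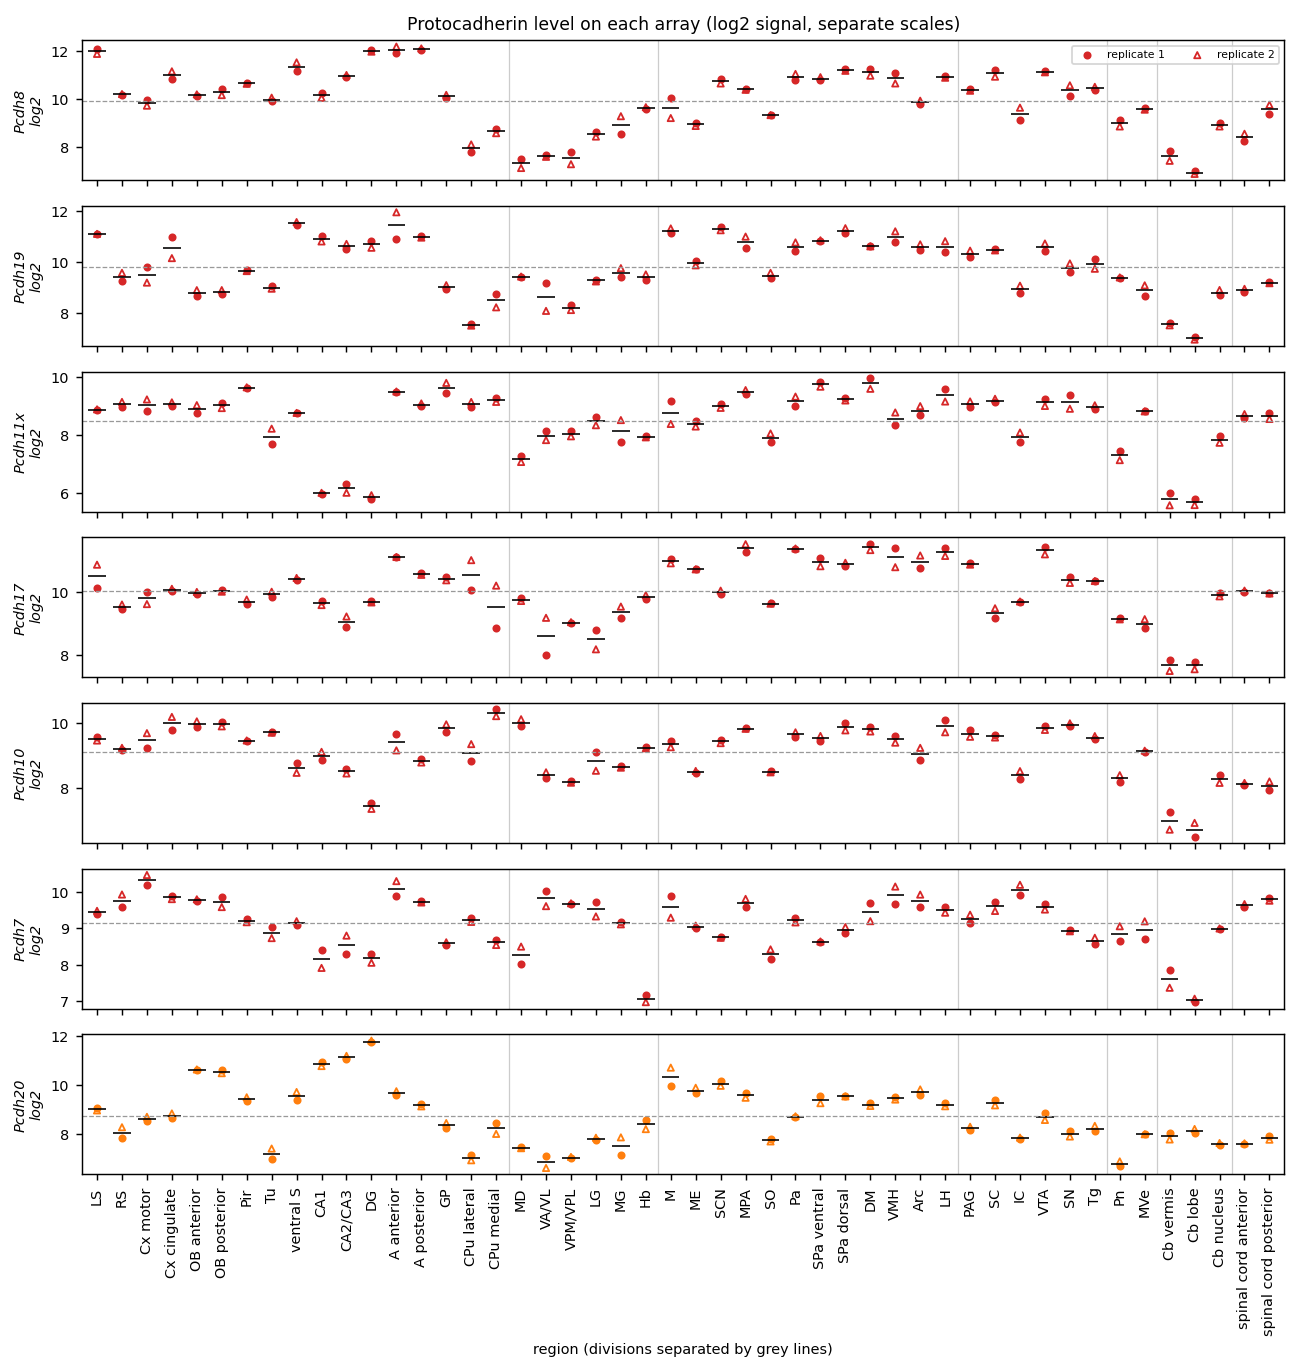
Each panel shows 1 protocadherin, with the 48 regions in order of division on the x axis and log2 signal on the y axis; filled circles are replicate 1, open triangles replicate 2, black bars the mean of the 2 and the dashed line the mean of 48 regions. Pcdh8, Pcdh19, Pcdh17, Pcdh10 and Pcdh7 drop in the cerebellar cortex, Pcdh11x also in the hippocampus, and Pcdh20 stands highest in the DG at 11.73 and 11.81.

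Pcdh20 and Pcdh15 stand outside the delta group. Pcdh20, a protocadherin known from newborn olfactory neurons, was highest in the 3 hippocampal fields, with DG at 11.73 and 11.81 (3.10 ± 0.12, adjusted p = 2.0e-28 by limma), CA2/CA3 at 11.07 and 11.18, and CA1 at 10.93 and 10.76. No array of another region reached these 6 values, the nearest being replicate 2 of the mammillary body (M) at 10.70 (9.95 on replicate 1), and the next highest mean was that of the anterior olfactory bulb, at 10.62 and 10.63. It was called lower in 10 regions, with the pontine nucleus (Pn, 6.66 and 6.86) and the motor nuclei of the thalamus (VA/VL, 7.07 and 6.59) among the lowest, although the second probe set gave -0.76 in Pn. The distance from DG to Pn was 5.01, or 32.2-fold. Pcdh15, which forms part of the tip link of hair cells, had low signals with a mean of 7.05. It was called higher in M (7.84 and 8.57) and the dorsal subparaventricular zone (8.21 and 8.05) and lower in 6 regions that included CA1, CA2/CA3, DG and the cerebellar cortex. The call in M rested on replicate 2, without which the difference was 0.82, and the second probe set of Pcdh15 gave -0.0007 there (adjusted p = 1.00) and -0.33 in the Cb lobe.

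Among the type I cadherins, Cdh1, the adhesion protein of epithelia, had signals near the bottom of the scale in most regions, with a mean of 5.20, and stood out in a few small regions at the base of the brain. The supraoptic nucleus (SO) had 8.76 and 8.71 (3.60 ± 0.17, adjusted p = 1.8e-25 by limma), the median eminence (ME) 7.52 and 8.38, and the SCN 7.57 and 7.18. The Cb lobe (6.19 and 7.42), M and Pn were also called higher, and the 2 arrays of the Cb lobe differed by more than the distance between many regions. Markers of leptomeningeal cells were high in several of these regions, and also in some others. In the marker lists, here and below, a gene counted as higher needed only an adjusted p under 0.05 (limma), with no size asked for. Of all pairs of a probe set and a region, 28.7% reached this p in either direction. The list of 8 leptomeningeal genes had its summed signal, on the log2 scale, between 10.06 and 13.77 over the 48 regions (median 10.97). ME was highest at 13.77 and SO next at 13.58, with all 8 genes higher on this count in both. The SCN had 12.38, with 6 of 8 higher, and Pn had 11.92 with 7 of 8. M had 11.77 with 5 of 8, whereas the Cb lobe had 11.15 with 0 of 8. Higher values of this sum than in the SCN were also found in the ventral subiculum (12.95, only 2 of 8 genes higher, median difference -0.32), the arcuate nucleus (12.74, 6 of 8) and both parts of the olfactory bulb (anterior 12.68, 7 of 8, and posterior 12.56, 5 of 8). Cdh1 was called higher in none of these regions. Over the 48 regions Cdh1 correlated with this sum at r = 0.734, and the genes nearest to it were Colec12 (0.920), Serping1 (0.919) and Thbd (0.913). In the SO the endothelial list was also at its highest of the 48 regions (12.56, all 8 genes higher on the same count). The part of these cells in the Cdh1 signal was not tested.

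Cdh4 (R-cadherin) had its highest mean in the dorsal subparaventricular zone, at 10.59 and 10.67 (2.08 ± 0.14), followed by the posterior amygdala (10.06 and 10.29), the anterior amygdala (10.34 and 9.69) and both parts of the olfactory bulb. It was called lower in Hb (7.17 and 7.46), Pn and CA2/CA3, and its second probe set was highest in the anterior amygdala (9.35). Cdh15 (M-cadherin, known from muscle and from granule cells of the cerebellum) was flat outside the cerebellar cortex. It had 8.49 and 8.65 in the Cb lobe and 8.65 and 8.39 in the Cb vermis, while the next region, the olfactory tubercle (Tu), had 7.24 and 7.38 and the cerebellar nuclei had 7.08 and 6.99. Replicate 1 of the Cb lobe had a choroid plexus list sum of 14.02 and replicate 2 had 10.43, and the part of such cells in the Cdh15 signal was not tested. Cdh2, the main classical cadherin of neurons and glia, was called in no region. Its highest mean was in ME (11.56 and 11.61, 0.99 above the others) and its lowest in GP (9.62 and 9.71). Cdh3 was not called either.

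**Figure D4:**
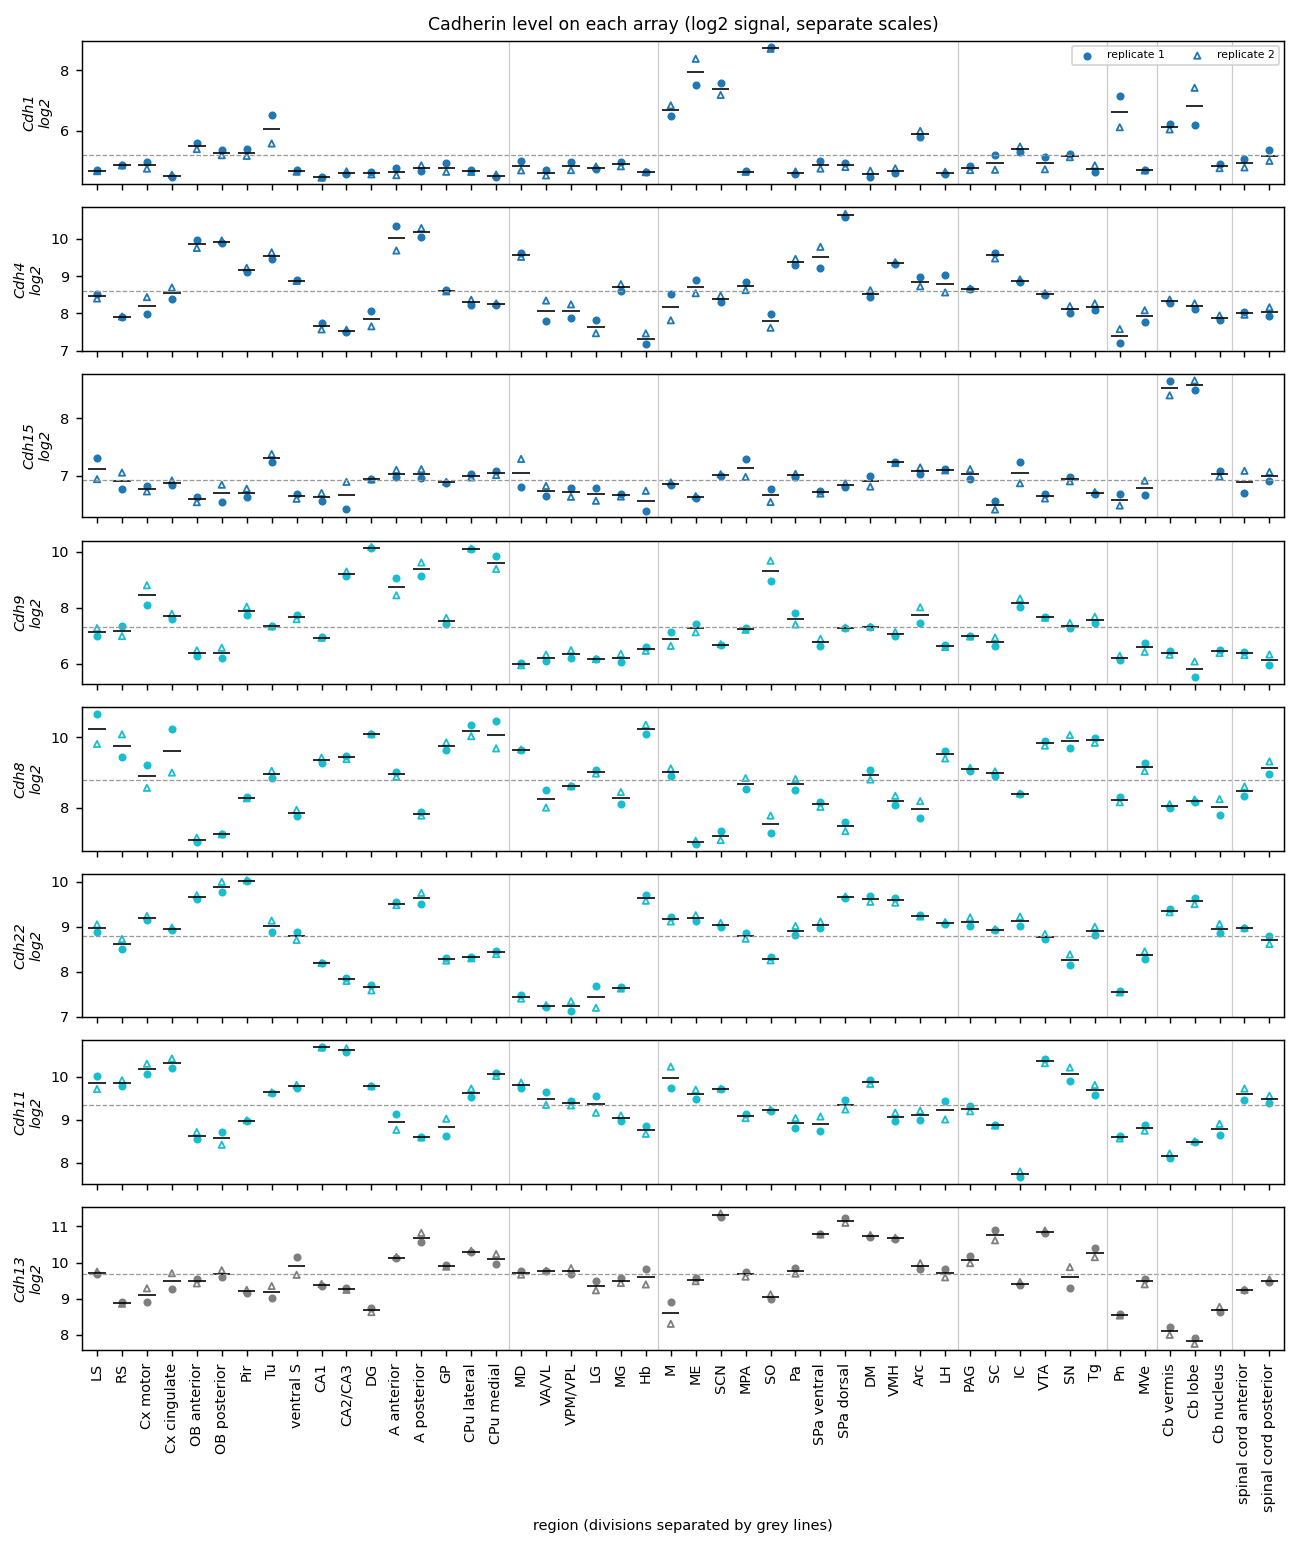
Each panel shows 1 cadherin, with the 48 regions in order of division on the x axis and log2 signal on the y axis; filled circles are replicate 1, open triangles replicate 2, black bars the mean of the 2 and the dashed line the mean of 48 regions. Cdh1 is highest in the SO at 8.76 and 8.71, Cdh15 in the 2 cerebellar cortex regions, and Cdh9, Cdh8, Cdh22, Cdh11 and Cdh13 each have their own set of high regions.

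The type II cadherins had regional maps that were unlike each other. Cdh9, which takes part in the matching of synapses between DG granule cells and CA3 neurons, was highest in DG (10.12 and 10.16, 2.89 ± 0.15) and the lateral CPu (10.09 and 10.11), then in the medial CPu (9.83 and 9.38) and the posterior amygdala (9.12 and 9.61). It was called higher in 8 regions and lower in 8, and 5 of the latter were thalamic nuclei, with MD at 6.00 and 5.94. Its lowest mean was in the Cb lobe (5.50 and 6.08). Cdh8, a cadherin of cortical and striatal circuits, was called higher in 9 regions, with Hb at 10.10 and 10.35, the lateral CPu at 10.34 and 10.03, DG at 10.08 and 10.09, and LS at 10.67 and 9.81. The means of these 4 regions lay closer together than the 2 arrays of LS, and the second probe set of Cdh8 gave -0.04 in LS (adjusted p = 0.82). Cdh8 was lowest in ME (6.98 and 7.07, with -0.55 from the second probe set) and the anterior olfactory bulb (7.03 and 7.16). The list of 8 neuronal markers was at its lowest of 48 regions in ME, at 13.92 on the log2 scale, and next lowest in SO, at 14.28. Of the other regions where Cdh8 was called lower, the SCN had 14.86 (rank 45) and the dorsal subparaventricular zone 15.29 (rank 37). The anterior and posterior olfactory bulb had 15.42 (rank 27) and 15.46 (rank 24). The part of cell composition in the Cdh8 signal was not tested.

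Cdh11 was highest in CA1 (10.70 and 10.68) and CA2/CA3 (10.58 and 10.67) and was called lower in the inferior colliculus (IC, 7.66 and 7.79, -1.66 ± 0.11) and Cb vermis. Cdh22 was called higher in Pir (10.01 and 10.04) and the posterior olfactory bulb (mean 9.89), and was called lower in 7 regions, 5 of them thalamic nuclei. Its difference in Pir was 1.26 ± 0.08 against all regions and 0.85 against the regions collected in the same of 4 sampling periods. Cdh10 was called in no region as higher and in both cerebellar cortex regions as lower, and its highest mean was in the cingulate cortex (10.23 and 10.18). Cdh7 was called higher only in the Cb lobe (8.17 and 7.98), with Pn (7.77 and 8.19) next, and it was lowest in DG (6.37 and 6.39). Cdh6, Cdh18 and Cdh20 were called in no region.

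Cdh19, a cadherin known from the glia of nerves, had its highest mean in the anterior spinal cord, at 9.07 and 8.89 (2.05 ± 0.12). The anterior olfactory bulb, at 8.38 and 8.50, and VPM/VPL, at 8.52 and 8.36, came next, and the ventromedial hypothalamic nucleus (VMH), at 6.06 and 5.80, was lowest. The difference in VMH was -1.06 ± 0.12, but -0.93 without its replicate 2 and -0.81 against the regions of its own sampling period. The list of 9 oligodendrocyte genes had its highest sums in the anterior spinal cord (16.04), the posterior spinal cord (15.95) and VPM/VPL (15.88). All 9 genes were higher by adjusted p alone in each. Cdh19 was also called higher in the anterior olfactory bulb, where the same list was at 14.19 (rank 38 of 48). There 0 of its 9 genes were higher by adjusted p alone. On the same count, the leptomeningeal list there was at 12.68 (rank 5, 7 of 8 genes higher). The endothelial list was at 11.97 (rank 2, 3 of 8) and the astrocyte list at 15.18 (rank 12, 6 of 8). Over 48 regions Cdh19 correlated with the oligodendrocyte list at r = 0.715, the astrocyte list at 0.597 and the endothelial list at 0.546, and the genes nearest to it were Erbb3 (0.909), Litaf (0.881) and Gsn (0.873). The part of these cells in the Cdh19 signal was not tested.

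Of the other cadherins, only Cdh13 (T-cadherin, which lacks the part inside the cell and is held by a lipid anchor) was called. It was highest in the SCN (11.26 and 11.36, 1.68 ± 0.11) and the dorsal subparaventricular zone (11.22 and 11.10), then in VTA (10.82 and 10.89). It was called higher in 8 regions and lower in 5, with the Cb lobe at 7.92 and 7.75. The highest region depended on the probe set. The second was highest in the posterior amygdala (10.60), the third in VMH (8.78) and the last, which did not follow the profile, in Pn (6.40). Cdh16, Cdh17, Cdh23 and Cdh26, known mainly from kidney, intestine, inner ear and epithelia, had ranges of 0.59 to 1.12.

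The clustered protocadherins varied less from region to region than the other branches, with a standard deviation above the median of all genes in 10 of the 23 and at or below it in 13, and Pcdhgc4 varied more than 83.5% of all genes. Probe sets of this family may pick up near-identical relatives, so the identity of single genes is uncertain. The 20 genes without a called region had ranges between 0.33 and 1.72. Pcdhb3 was called higher in CA1 (9.07 and 8.81, 1.26 ± 0.11) and lower in SO (6.55 and 6.54). Pcdhb7 was called higher in Tu (8.01 and 8.14, 1.06 ± 0.13) and lower in SO (5.71 and 6.38). Against the regions of the same sampling period the SO differences were -0.93 for Pcdhb3 and -0.78 for Pcdhb7, and without 1 array the Pcdhb7 differences were 0.995 in Tu (replicate 2 left out) and -0.68 in SO (replicate 1 left out). Pcdhgc4, the gamma protocadherin that certain inhibitory neurons need to survive, was called higher in MPA (8.53 and 8.94) and Cb vermis (8.73 and 8.72), and the MPA difference of 1.03 became 0.82 without replicate 2 and 0.91 within its sampling period.

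The regional profiles of the 22 genes of the beta cluster were weakly alike at the median. Their 231 pairs had a median r of 0.269 (-0.419 to 0.752), over the same 48 regions and arrays. This figure and the counts below were not computed over all genes, so it is not known how far they are particular to the cluster. With each gene centred on its own mean, the 22 genes averaged 0.28 in Tu, where 21 of 22 lay above their own mean, 0.27 in Pir (21 of 22) and 0.27 in the anterior olfactory bulb (17 of 22). The average was lowest in SO, at -0.25 with 6 of 22 above their mean, MPA, at -0.19 with 1 of 22, and LS, at -0.18 with 3 of 22. The summed neuronal markers were at 14.28 in SO, rank 47 of 48, at 14.98 in MPA (rank 44) and at 15.35 in LS (rank 32). In ME, where this sum was lowest (13.92), the beta genes averaged -0.0037 with 9 of 22 above their mean. The part of cell composition in these values was not tested.

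Whole divisions were then compared with the rest of the 48 regions. The p-values and standard errors of these comparisons rest on the spread between the 2 arrays of a region. The spread between the regions of a division does not enter them, and n counts arrays, not regions. With the region as a block and the sampling period as a term, 15 of the 18 named division values kept their call and 3 lost it. Of the 6 comparisons made, the cerebellar cortex (Cb lobe and Cb vermis, 4 arrays against 92) had the most members called: 2 were higher (all probe sets 3.10%) and 11 lower (1.99%). Pcdh11x averaged 5.72 ± 0.20 (SD, n = 4) against 8.58 ± 0.93 (n = 92), 7.24-fold lower (limma adjusted p = 4.8e-32), although signals near 6 and below have no detection call here and their distance from higher signals is uncertain. Pcdh8 was 6.76-fold lower, Pcdh19 6.21-fold, Pcdh17 5.48-fold and Pcdh10 5.14-fold, and in Pcdh17, Pcdh10 and Cdh13 the 4 arrays lay below all 92 others. Pcdh7, Cdh13, Cdh9, Pcdh15, Cdh10 and Cdh11 were lower by 1.07 to 1.89 on the log2 scale. Cdh15 averaged 8.55 ± 0.13 (n = 4) against 6.86 ± 0.22 (n = 92), 3.22-fold higher (limma adjusted p = 1.3e-28), with all 4 arrays above the other 92. Cdh1 was higher by 1.32 ± 0.12 (SE), with a spread of 0.64 among the 4 arrays. The cerebellar nuclei were no part of this comparison, and Pcdh17 had 9.96 and 9.87 there, Pcdh11x 7.94 and 7.72, and Pcdh10 8.38 and 8.15.

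The other divisions had fewer members called. In the thalamus, with the habenula included, the 4 members called were all lower (all probe sets 0.560% lower and 0.826% higher): Pcdh8 averaged 8.26 ± 0.90 (SD, n = 12) against 10.16 ± 1.18 (n = 84), a difference of -1.91 ± 0.06 (SE), and Pcdh20 (-1.42, but -0.80 with its second probe set), Cdh9 (-1.24) and Cdh22 (-1.16) followed. In the hypothalamus the 2 members called were both higher (all probe sets 0.646% higher and 0.657% lower), Pcdh19 at 10.69 ± 0.54 (n = 24) against 9.51 ± 1.11 (n = 72) and Pcdh17 at 10.89 ± 0.56 against 9.75 ± 0.83. With the second probe set Pcdh19 was at 0.996, just under the size asked for, and lost its call. In the telencephalon Cdh9 alone was called, as higher (all probe sets 1.19%), at 8.10 ± 1.23 (n = 34) against 6.89 ± 0.75 (n = 62), and within it DG and CPu lay far above CA1. In the mesencephalon no member was called by limma (all probe sets 0.384%), although 26 of the 55 had an adjusted p under 0.05 with smaller differences, 18 higher and 8 lower (all probe sets 34.1% by adjusted p alone), and 30 had an unadjusted p under 0.05. In the spinal cord 1 member was higher (all probe sets 1.43%) and 3 lower (0.737%). Cdh19 averaged 8.62 ± 0.42 (n = 4) against 6.90 ± 0.73 (n = 92), 3.31-fold higher, and Cdh9, Pcdh20 and Pcdh10 were lower by 1.11, 1.07 and 1.07. With the sampling period as a term and the region as a block, these 3 lost their call (adjusted p = 0.11, 0.27 and 0.064) and Cdh19 kept it, and without replicate 1 the Pcdh10 difference was -0.98. With second probe sets, Pcdh20 was at -0.67 and Pcdh10 at -0.76.

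Neighbouring regions were compared in 8 pairs. In every called difference named here, the arrays of the 2 regions did not overlap. This follows largely from the size and adjusted p asked for and is no separate support. Between the hippocampal fields the largest step was that of Cdh9. It had 6.94 and 6.92 in CA1, 9.11 and 9.29 in CA2/CA3, and 10.12 and 10.16 in DG, so CA1 was 4.83-fold below CA2/CA3 and 9.27-fold below DG (limma adjusted p = 6.2e-19). Pcdhb3 went the other way, with 9.07 and 8.81 in CA1 and 7.34 and 7.54 in CA2/CA3. These 2 genes were the members called between CA1 and CA2/CA3 (all probe sets 1.56%). Between CA1 and DG, 5 members were called (all probe sets 3.22%): Cdh9 and Pcdh8 were lower in CA1, while Pcdh10 (8.85 and 9.11 against 7.54 and 7.35), Cdh10 (10.20 and 10.18 against 8.62 and 8.85) and Pcdhb3 were higher. The Pcdhb3 step to DG was 1.13 and fell to 0.998 without CA1 replicate 1, and that of Cdh10 was 0.87 with the second probe set. Marker lists differed between these fields as well. CA2/CA3 had the highest choroid plexus sum of the 48 regions (14.75, against 13.09 in CA1 and 10.98 in DG). All 9 oligodendrocyte genes were higher there by adjusted p alone, against 1 in CA1 and 0 in DG. The part of these cells in the steps was not tested.

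The habenula and its thalamic neighbour MD differed in 5 members (all probe sets 4.59%). Pcdh8 had 9.58 and 9.65 in Hb against 7.51 and 7.12 in MD, and Cdh22 had 9.72 and 9.58 against 7.49 and 7.40, differences of 2.30 ± 0.19 and 2.20 ± 0.11 (SE). In both genes Hb lay above all 10 arrays of the other 5 thalamic regions. Cdh4 had the opposite step, with 7.17 and 7.46 in Hb and 9.61 and 9.52 in MD (-2.25 ± 0.19). Pcdh7 (-1.19) and Cdh11 (-1.04) were also lower in Hb, and both fell below a size of 1 without MD replicate 2, at -0.95 and -0.97, which left 3 members called. Cdh11 also did so without Hb replicate 2, at -0.94, and Pcdh7 with its second probe set, at -0.72. In Hb all 8 ependymal and 5 of 7 choroid plexus genes were higher by adjusted p alone (sums of 12.08 and 13.89). None were in MD (10.17 and 10.82), and the part of such cells in these steps was not tested.

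The superior colliculus (SC), a centre of vision, and the IC, a centre of hearing, differed in 8 members of the 55 (all probe sets 1.07%). The 7 members higher in SC were Pcdh8 (11.20 and 10.93 against 9.12 and 9.63), Pcdh19 (10.52 and 10.46 against 8.79 and 9.08), Pcdh20, Cdh13, Pcdh11x, Pcdh10 and Cdh11, by 1.15 to 1.69. Cdh9 alone was higher in IC, with 8.04 and 8.33 against 6.62 and 6.93 (-1.41 ± 0.21). The count stayed at 8 when any 1 of the 4 arrays was left out, and it was 5 with the second probe sets, among which Pcdh20 was at 0.80 and Cdh13 at 0.77. The leptomeningeal list had 6 of 8 genes higher by adjusted p alone in IC (sum 11.81) and 2 of 8 in SC (11.30). Its part was not tested. Cdh11 in the IC had the lowest regional mean of all 48 regions.

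In the basal ganglia, CPu and GP differed in 7 members (all probe sets 3.69%). Cdh9 had 10.09 and 10.11 in the lateral CPu, 9.83 and 9.38 in the medial CPu and 7.42 and 7.63 in GP (2.33 ± 0.18, 5.02-fold), and Pcdhb17 (1.16) and Cdh11 (1.02) were also higher in CPu. Pcdh8 was 1.80 ± 0.17 lower in CPu, where the lateral part had 7.79 and 8.10 and the medial part 8.76 and 8.57 against 10.04 and 10.17 in GP, and Cdh19 (-1.17), Pcdh15 (-1.01) and Pcdh19 (-1.01) were lower as well. Several of these steps were close to a size of 1. Without GP replicate 1, Pcdhb17 was at 0.97 and Cdh11 at 0.82; Cdh11 was also at 0.97 without lateral CPu replicate 2 and 0.999 without medial CPu replicate 1. Pcdh15 was at -0.994 without lateral CPu replicate 1 and without GP replicate 2 and at -0.90 without medial CPu replicate 1, and Pcdh19 was at -0.996, -0.87 and -0.93 without replicate 2 of the lateral CPu, the medial CPu and GP. The second probe set of Pcdh15 gave -0.29. In GP all 9 oligodendrocyte and all 8 microglia genes were higher by adjusted p alone (sums of 15.68 and 13.77). The counts were 0 and 5 in the lateral CPu (14.76 and 12.74) and 2 and 5 in the medial CPu (15.04 and 12.78). The part of these cells in these steps, that of Cdh19 included, was not tested.

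The remaining pairs had 1 member called each. Cdh9 was higher in the motor cortex (8.09 and 8.80) than in the retrosplenial cortex (7.35 and 6.98), by 1.28 ± 0.21 (all probe sets 0.417%). Without motor cortex replicate 2 the difference was 0.92 and no member was called, and the count was 3 without motor cortex replicate 1 and 4 without retrosplenial cortex replicate 1. Cdh13 was lower in the substantia nigra (9.31 and 9.87) than in VTA (10.82 and 10.89), by 1.26 ± 0.15 (all probe sets 1.21%), and by 0.98 without substantia nigra replicate 1. Pcdh11x was lower in VMH (8.35 and 8.76) than in DM (9.95 and 9.58), by 1.21 ± 0.20 (all probe sets 1.98%), and the second probe set gave -0.78.

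**Figure D5:**
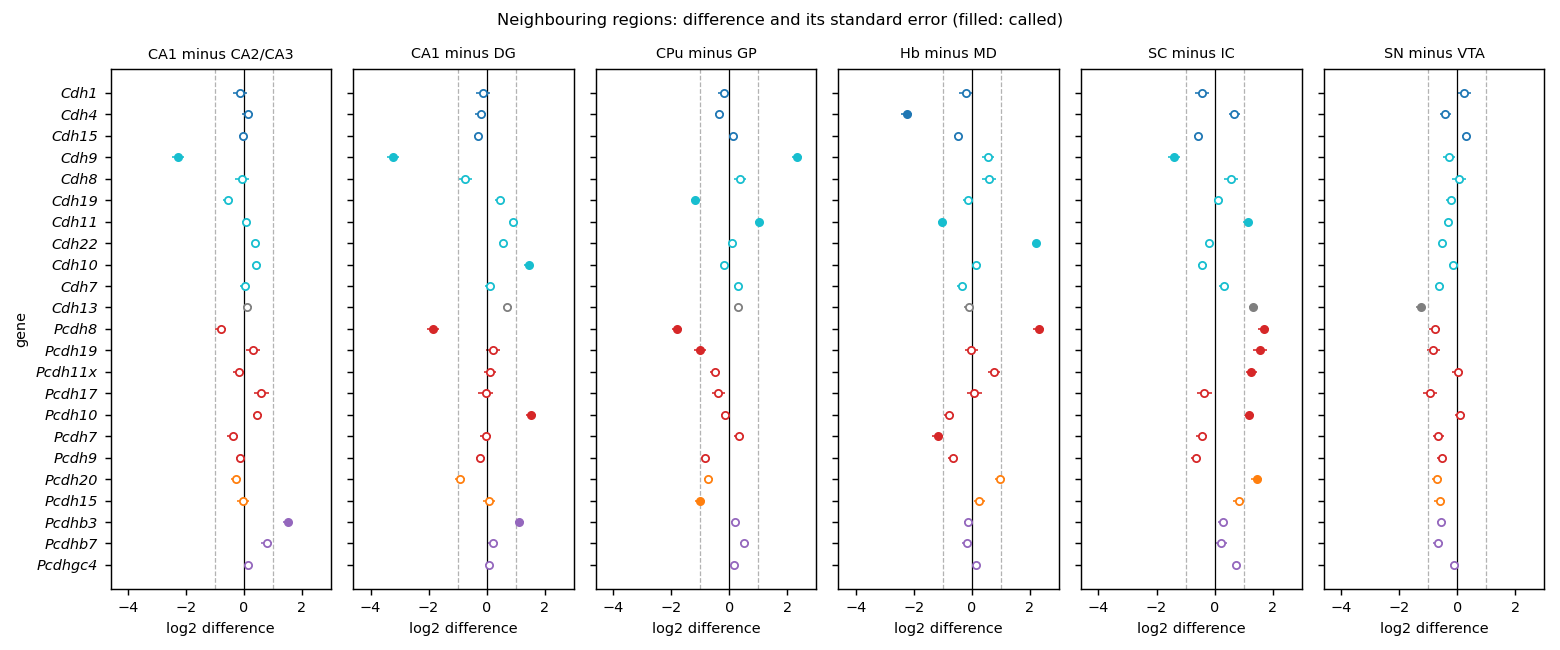
Each panel compares 2 neighbouring regions, with the 23 members on 1 axis and the difference of the first minus the second region on the log2 scale on the other; bars are standard errors, filled points are called differences and dashed lines mark -1 and 1. In the panel of SC and IC most called members lie to the side of SC and Cdh9 to that of IC, and Cdh9 has the widest step of the panel of CA1 and DG.

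The retina, pituitary and pineal gland were each compared with the same 96 arrays of the 48 regions, so these comparisons share their controls. Large shares of the array were called in each. The retina had 4 members called higher and 12 lower (all probe sets 9.55% and 7.95%), the pituitary 3 and 13 (4.87% and 5.99%), and the pineal gland 1 and 17 (6.27% and 6.48%). Cdh1 was higher in all 3. It had 10.93 and 11.15 in the retina, where it was 57.3-fold above the regional mean (5.84 ± 0.17, limma adjusted p = 1.0e-37), 7.35 and 6.67 in the pituitary, and 8.74 and 8.53 in the pineal gland. The retina alone lay above every brain array in this gene. The leptomeningeal sum was 15.56 in the retina, 14.08 in the pineal gland and 13.18 in the pituitary, against a highest value of 13.77 and a median of 10.97 over the 48 regions. The neuronal sum was 12.54, 14.36 and 13.33 in the same order, against a lowest value of 13.92 and a median of 15.46 over the 48 regions. The part of these cells in the differences of the 3 organs was not tested.

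Also called higher in the retina were Pcdh1 (7.58 ± 0.02, SD, n = 2, against 6.03 ± 0.24, n = 96), Cdh11 and Cdh19. The 2 retina arrays differed widely in the last 2 genes, with 11.58 and 10.14 for Cdh11 and 9.10 and 7.29 for Cdh19, and without replicate 1 the differences were 0.79 and 0.32 (adjusted p = 0.099 for Cdh19), while the second probe set of Cdh11 gave 0.64. Cdh26 was higher in the pituitary (8.89 ± 0.42, n = 2, against 6.88 ± 0.22, n = 96), and Pcdhb3 was higher there by 1.12, or 0.98 without replicate 1. Several delta protocadherins fell far below their level in the brain. Pcdh17 was at 6.81 and 5.83 in the retina and 6.21 and 5.90 in the pineal gland, against a regional mean of 10.04, and Pcdh10 lay between 5.34 and 6.03 on all 6 arrays, against 9.11. In the pituitary Pcdh7 averaged 5.71 against 9.13 and Cdh8 5.83 against 8.78. Since such low signals have no detection call, the sizes of these falls were not ranked. With second probe sets, Pcdh7 lost its call in the pituitary (-0.91) and the pineal gland (-0.90), and Cdh8 in the retina (-0.81) and the pituitary (-0.62). Cdh2 was lower in the retina (8.63 ± 0.31 against 10.61 ± 0.49) and was not called in the pituitary or the pineal gland.

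Catenins and the more distant members of the cadherin superfamily were examined for comparison. All 10 catenins and partner genes listed, which link classical cadherins to the actin skeleton, passed the F test (91.1% of all probe sets did), and 4 of them had a called region (24.0% of all genes). Called pairs were 5 higher (1.04%) and 4 lower (0.83%) of 480. Over all probe sets the shares were 1.40% and 0.880%, and with 1 probe set a gene they were 1.64% and 1.09%. With cyclic loess normalisation 4 pairs were called. Ctnna1, alpha-E-catenin, was called higher in ME (11.26) and lower in Pir, DG and the posterior amygdala. Vcl, vinculin, was called higher in SO (10.63), Pkp4 in the anterior spinal cord (11.91) and Jup, plakoglobin, in both parts of the olfactory bulb. Their median standard deviation over regions was 0.31, against 0.21 over all genes, and Ctnna1 and Vcl were at their highest in the ME and SO, where Cdh1 and the leptomeningeal markers were highest as well.

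Of 24 other superfamily genes listed, 22 had a probe set of their own, 21 passed the F test and 10 had a called region (45.5%, against 24.0% of all genes). Called pairs were 31 higher (2.94%) and 12 lower (1.14%) of 1056, with a median standard deviation of 0.32. With 1 probe set a gene, the shares of all pairs were 1.64% and 1.09%, so the share called lower was near that of all genes. Over all probe sets they were 1.40% and 0.880%. Cdhr1, a photoreceptor cadherin also made by mitral cells, was highest in the anterior (12.73) and posterior (12.73) olfactory bulb, with a range of 6.48 that exceeded that of any of the 55 members. Clstn2, a calsyntenin of synapses, was highest in CA2/CA3 (11.61) and DG (11.59) and was called higher in 5 regions and lower in 6. The giant cadherins Fat1 and Fat2 were highest in the Cb lobe, at 12.41 and 10.32, and were called higher in the cerebellar cortex by 1.85 and 2.60, while Fat3 was called lower there by 1.28. Fat1 and Fat2 thus moved with Cdh15 there and Fat3 with the delta protocadherins.

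The 26 genes with several probe sets allowed a check of the profiles within the array. The other probe set of Pcdh8 correlated with the one used at r = 0.994 over 48 regions, and those of Pcdh19 at 0.983 and 0.972, Pcdh11x at 0.955, Pcdh20 at 0.934, Pcdh17 at 0.932, Cdh11 at 0.885 and Pcdh10 between 0.666 and 0.958. Cdh4 (0.946 and 0.180), Cdh13 (0.935, 0.802 and 0.017) and Cdh10 (0.759, 0.828 and 0.018) each had a probe set that did not follow the others. In 8 genes a dimmer probe set varied more between regions than the brighter one used, namely Pcdh8, Pcdh9, Cdh4, Cdh6, Cdh7, Cdh11, Cdh13 and Cdh23. That of Cdh7 had a range of 3.05 with 6 regions called higher and its highest mean in the Cb lobe, that of Cdh6 had a range of 2.14 with VA/VL highest (7.24), and that of Cdh23 had a range of 1.72 with Pn highest (6.70).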

How the data were processed

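The deposited values were log2 signals that the authors had normalised by RMA, which corrects background, equalises the distributions of the arrays and summarises the probes of a probe set; arrays have no read depth, and with 2 arrays a region their number limits the precision. Of 45101 probe sets, 64 controls were removed. Names came from the annotation of the platform, in which 34945 probe sets name 1 gene, and 6 probe sets that name several Pcdha genes were left out of the members. No genome build applies to the probe sets.

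Regions were fitted as groups in limma 3.58.1 (R 4.3.3) over all probe sets, with no covariate and Benjamini-Hochberg adjustment over all probe sets within each comparison. The residual degrees of freedom were 48. On simulated data for the SCN against the other 47 regions (8000 probe sets), an adjusted p under 0.05 (limma) was reached in 100% of 50 probe sets with a shift of 1. With a shift of 0.5 it was reached in 92% of 50, and 10 probe sets without a shift also reached it. The other regions had no differences in these data. The size of at least 1 was not asked for there, so these shares are not those of the calls made here. The p-values measure the spread between pooled samples of the same region. In the comparisons of divisions, as fitted without a block, the spread between regions does not enter them. The members, the lists and the comparisons were chosen with earlier results of these data known. Values by region were given for up to 6 members a branch with the widest range among those with a called region, for up to 5 members each way in each comparison, and for up to 4 genes of each other list, and any further member is named with its range or without values. The alternatives were a replicate block, the sampling day as a block, a variance trend, cyclic loess normalisation, a filter on dim probe sets (highest regional mean of at least 7), the second probe set of a gene, comparison within the sampling period, other sizes of difference and leaving out arrays.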

Additional observations from a re-analysis of the deposited data

How the results depend on the processing

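With a size of 0.5 in place of 1, 321 pairs of a member and a region were called higher and 292 lower, and with a size of 2, 17 and 21 (105 and 96 at a size of 1). Counts of called members also moved in a few comparisons: with cyclic loess normalisation to 2 in the telencephalon and to 2 between motor and retrosplenial cortex (1 in each before), and to 4 of the catenin pairs (9 before); with the second probe set to 2 in the telencephalon (1 before), 1 in the hypothalamus (2 before), 5 between SC and IC (8 before) and 2 between substantia nigra and VTA (1 before); and with the sampling period as a term and the region as a block to 1 in the spinal cord (4 before). With the second probe set, Pcdh15 in M was -0.0007 and Cdh8 in LS was -0.0381. When arrays were left out, counts ranged from 0 to 4 between motor and retrosplenial cortex, 3 to 5 between Hb and MD, 5 to 6 between CPu and GP, 1 to 2 between substantia nigra and VTA and between VMH and DM, 2 to 3 between CA1 and CA2/CA3, 3 to 5 in the spinal cord, 13 to 14 in the cerebellar cortex, 103 to 109 pairs higher and 94 to 99 lower. The causes were not tested.

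Some of the named values were not called to begin with, so a value is said to keep its state where its direction and its being called or not were unchanged. Of the 111 named values, 111 kept their state with a variance trend and 110 with cyclic loess. Of 71 with a second probe set, 48 kept their state, 21 lost the call and 2 changed sign. Deviations of same-numbered arrays of different regions had a mean r of 0.00853 over 1128 pairs of regions (-0.569 to 0.528, 282 over 0.1 and 234 under -0.1). Such a mean does not show that no pairs deviated together. Among the 55 pairs of regions that share the first sampling day of each replicate the mean was 0.0875, with 27 over 0.1 and 7 under -0.1. More of these pairs thus deviated together than apart. With the sampling day as a block, 87 of 88 named values kept their state and 1 lost its call. The replicate block does not model the day. With the replicate block all 111 named values kept their state. The counts were the same as without it (105 pairs higher, 96 lower, 13 members in the cerebellar cortex).

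Signals between about 4 and 6 have no detection call here, so the size of a difference from such a level, in any member, is uncertain. All p-values rest on pools of mice, and each region was collected in 1 of 4 sampling periods. Of 42 named values with other regions in the same period, 35 kept their state within it, 5 lost their call and 2 gained one.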

Other observations

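The alpha protocadherins were measured only by probe sets that name several genes. Of 6 such probe sets, 3 name 14 genes each and had ranges between 1.45 and 2.25 on the log2 scale: 1 had its highest means in Pir (11.32) and CA1 (11.20) and its lowest in SO (9.07), another was highest in Pir (10.46) and lowest in SO (8.49), and the last was highest in MD (9.12) and lowest in SO (7.67). The other 3 name 9 genes each and ranged by less than 0.5. SO was thus lowest in all 3 probe sets with a wider range, as it was for the average of the beta cluster.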
